A study of Mus musculus with 6 samples.

Results

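Histone genes code for the proteins that DNA is wound around, and their transcripts come in 2 kinds that a poly(A)-selected library treats differently. Transcripts of replication-dependent histones, made in bulk while a cell copies its DNA, normally end in a short stem-loop bound by the stem-loop binding protein (Slbp) in place of a poly(A) tail. Replacement variants such as H3.3, H2A.Z and H1.0 are made in dividing and resting cells alike from ordinary polyadenylated transcripts, and most hepatocytes of an adult liver are at rest. Some replication-dependent histone genes are also known to give polyadenylated transcripts in differentiated cells, by use of a poly(A) signal downstream of the stem-loop.

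The genes were chosen by name, from symbols of the H1, H2A, H2B, H3 and H4 families. Symbols with the pseudogene mark -ps were left out, which gave 79 of the 56674 rows of the count table. The GENCODE M21 annotation lists 3 of those kept, H2ac14, H3f4 and H3f3c, as pseudogenes. By symbol, 63 were replication-dependent genes (5 H1, 17 H2A, 16 H2B, 12 H3 and 13 H4), 8 were polyadenylated variants (H1f0, H1f10, H2aj, H2az1, H2az2, H3f3a, H3f3b and H3f3c), 7 were germ-line genes and 1, H3f3aos, was antisense to H3f3a. Of the replication-dependent genes, 51 lie on mouse chromosome 13, 10 on chromosome 3 and 1 on chromosome 6, and 1, H2bc24, had no match in the reference annotation.

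The libraries came from livers of male C57BL/6 mice kept for 71 weeks on chow containing PE-MP, a polyethylene microplastic, or on normal chow, with 3 libraries per chow. No genetic change and no other agent is named in the labels. They give neither the amount nor the particle size of the plastic, and do not say whether each library is 1 animal, so that p-values measure the spread between libraries, which may be technical. The study asked whether long exposure to the plastic changes hepatic gene expression.

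Total counts ran from 75176645 to 91898953 in PE-MP libraries and from 68357478 to 112566641 in normal chow libraries. Levels below are CPM, a library's counts scaled to a common total, after normalisation by trimmed mean of M values (TMM) unless stated otherwise, and fold changes are log2 values of PE-MP over normal chow from edgeR. TMM set the median of all 18043 tested genes at 0.02. Scaling to total counts alone moved that median to 0.32, so that each histone value on that scale has to be read against a shift of this size. Hepatocyte markers, 8 of 8 measured, summed to 69087 to 76155 CPM in PE-MP libraries and to 64151 to 74827 CPM in normal chow libraries.

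The 3′ ends of the annotated transcripts separated both kinds. A stem-loop was searched for in the 3′ UTRs of the GENCODE M21 annotation (GRCm38, not the GRCm39 build of the counts), on the sense strand, as a 6-base arm GGNNCT, a 4-base loop NNTN and a second arm ANNNCC complementary to the first. It was found in 43 of the 50 replication-dependent genes that had an annotated 3′ UTR (86%), in 0 of 7 variants and in 20 of 21063 other protein-coding genes (0.095%). In the 43 genes it began 22 to 59 bases after the stop codon, with a median of 32. The main forms are shown because they are the feature that normally keeps these transcripts out of a poly(A) selection, with the paired stem in capitals and the loop in lower case, 5′ to 3′ on the sense strand.
24 genes, among them H1f2, H2bc8, H2ac24, H2ac23 and H3c15: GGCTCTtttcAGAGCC
7 H4 genes, among them H4c8 and H4c3: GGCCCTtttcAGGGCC
5 genes, among them H2bc12 and H3c6: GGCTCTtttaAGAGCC
H4c9 and H4c14: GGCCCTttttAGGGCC
H4c2 and H4c11: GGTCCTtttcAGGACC
H2ac20: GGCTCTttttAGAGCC

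A poly(A) signal, AATAAA or ATTAAA on the sense strand of the annotated 3′ UTR, was present in all 7 variants that had one annotated, in 18 of 50 replication-dependent genes (36%) and in 91.2% of other protein-coding genes. The windows of 30 bases below belong to the genes with the most counts, with the last AATAAA before the transcript's end in capitals. H1f2 (chromosome 13, + strand) carries both features, a stem-loop that starts 25 bases after the stop codon and a signal at the end of an 880-base UTR. H2bc4 (chromosome 13, + strand) carries a signal and no match to the stem-loop pattern in its annotated 742-base UTR. The signal shown starts 447 bases before the annotated transcript end in H2bc4, 121 in H2az1 and 93 in H3f3b. It starts 26 bases before that end in H1f2, 22 in H3f3a, 29 in H2az2 and 24 in H2aj. Whether the transcripts end at these signals was not tested. Among the variants shown, H3f3a lies on chromosome 1 (- strand), H3f3b and H2az2 on chromosome 11 (- strand), H2az1 on chromosome 3 (+ strand) and H2aj on chromosome 6 (+ strand).
H1f2: gtgtatgcttctAATAAAaagcgtttagtt
H2bc4: tgatgtatatatAATAAAtgtcatgtaaag
H3f3b: ataggccttacaAATAAActagtaagtttg
H3f3a: aatttgaaaaatAATAAAagtaccaataga
H2az1: gtggataagctcAATAAAggtcatatccca
H2az2: caaatgcacagaAATAAAgaaactagcact
H2aj: gcaaaaaggacaAATAAAgaatatattaca

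Per kilobase of exon, both kinds held a few genes at like levels and differed in the rest. H2bc4, coding for a core histone H2B, had 69.5 CPM per kb in PE-MP livers and 84.2 CPM per kb in normal chow livers, above every variant. H1f2, a replication-dependent linker histone H1, had 45.1 CPM per kb in PE-MP livers and 46.9 CPM per kb in normal chow livers, next to H3f3b with 37.3 CPM per kb in PE-MP livers and 42.9 CPM per kb in normal chow livers. H2bc8, an H2B gene with a stem-loop and no poly(A) signal in its annotated UTR, ranked next among the replication-dependent genes with 16.9 CPM per kb in PE-MP livers and 20.4 CPM per kb in normal chow livers. The other replication-dependent genes with an annotated length were at 2.82 CPM per kb or below as the mean of the 6 libraries, and H2bc24 has no length here. Of 50-base coding windows, 97.6% in H2bc4, 85.2% in H2bc8 and 21.9% in H1f2 also occur in transcripts of another gene. Among the variants the share was 100% in H2az1, 92.8% in H3f3a, 46.4% in H3f3b, 11.7% in H2aj and 0% in H2az2. How reads were split among such copies is uncertain.

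By feature, the median level over 6 libraries was 0.198 CPM per kb in 28 replication-dependent genes with a stem-loop only, 0.292 CPM per kb in 15 with both features, and 0.456 CPM per kb in 3 with a signal only, of which H2bc4 was one. It was 19.9 CPM per kb in the 7 variants with an annotated UTR. The ranges overlapped, since genes with a stem-loop only reached 18.7 CPM per kb, H1f2 with both features reached 46.0 CPM per kb and the variant H1f0 was at 0. These are levels of annotated genes, and which 3′ end the counted transcripts had cannot be read from gene counts.

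**Figure D1:**
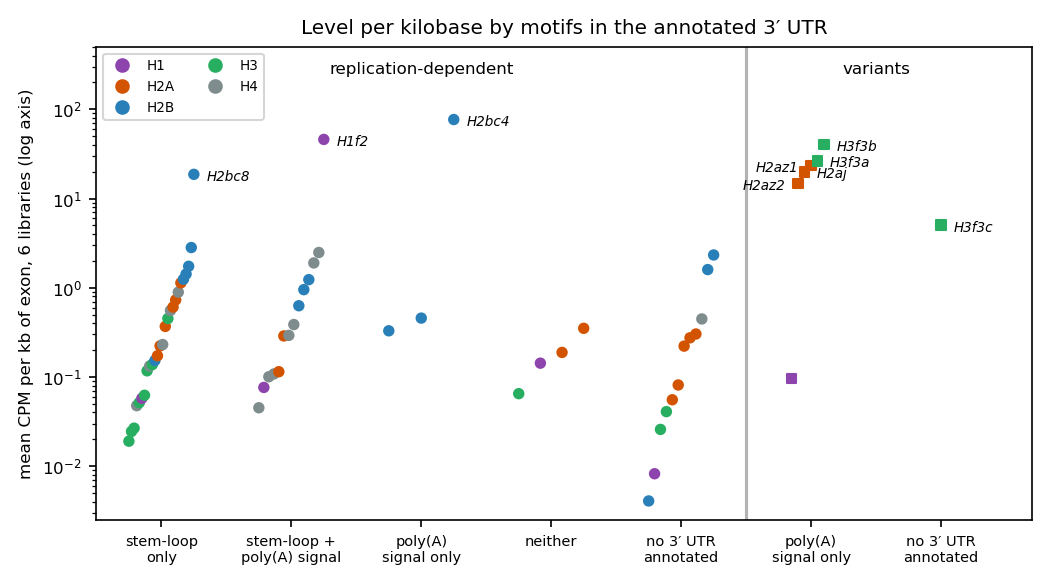
Mean CPM per kilobase of exon over the 6 libraries (log axis) for each histone gene with at least 1 count and a matched length, by the motifs found in its annotated 3′ UTR; circles are replication-dependent genes, squares variants, and colours the histone family. H2bc4 (76.8 CPM per kb) and H1f2 (46.0) stand above the highest variant, H3f3b (40.1), H2bc8 (18.7) stands among the variants, and the other replication-dependent genes drawn are at 2.82 or below.

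The 3 highest replication-dependent genes, H2bc4, H1f2 and H2bc8, took 89.4%, 89.3% and 90.1% of all replication-dependent histone counts in PE-MP libraries 1 to 3, against 87.8%, 86.8% and 87.4% in normal chow libraries 1 to 3. The other 60 genes shared the rest. A count was present for 60 of the 63 genes in at least 1 library, and 37 of the 63 had fewer than 100 counts over all 6 libraries. The expression filter kept 34 of them for testing, along with 7 of 8 variants, 1 germ-line gene and H3f3aos. Filtered genes are not a random draw of the members, since a gene high under only 1 chow passes more easily.

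No histone gene differed between chows at an adjusted p under 0.05. On simulated counts the test at this threshold called 2.88% of 2-fold and 48.3% of 4-fold changes, so a gene not called may still differ. These rates pool genes of all levels, and the rate at the low counts of many histone genes was not measured. Over all genes, edgeR called 1 of 18043 at that threshold (0.00554%), higher under PE-MP. Among the 34 tested replication-dependent genes the smallest adjusted p was 0.124, with 6 lower and 0 higher at an unadjusted p under 0.05, where 8.82% of all genes were lower and 9.1% higher. Their log2 fold changes ran from -1.74 to 0.71 with a median of -0.50, and 32 of 34 were negative, against 48.3% of all tested genes and an all-gene median of 0.02. In 15 of the 34 all PE-MP libraries lay below all normal chow libraries and in 1 above them, against 11.8% and 14.2% of all genes. The genes are not independent, since many share sequence and all are measured in the same libraries.

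**Figure D2:**
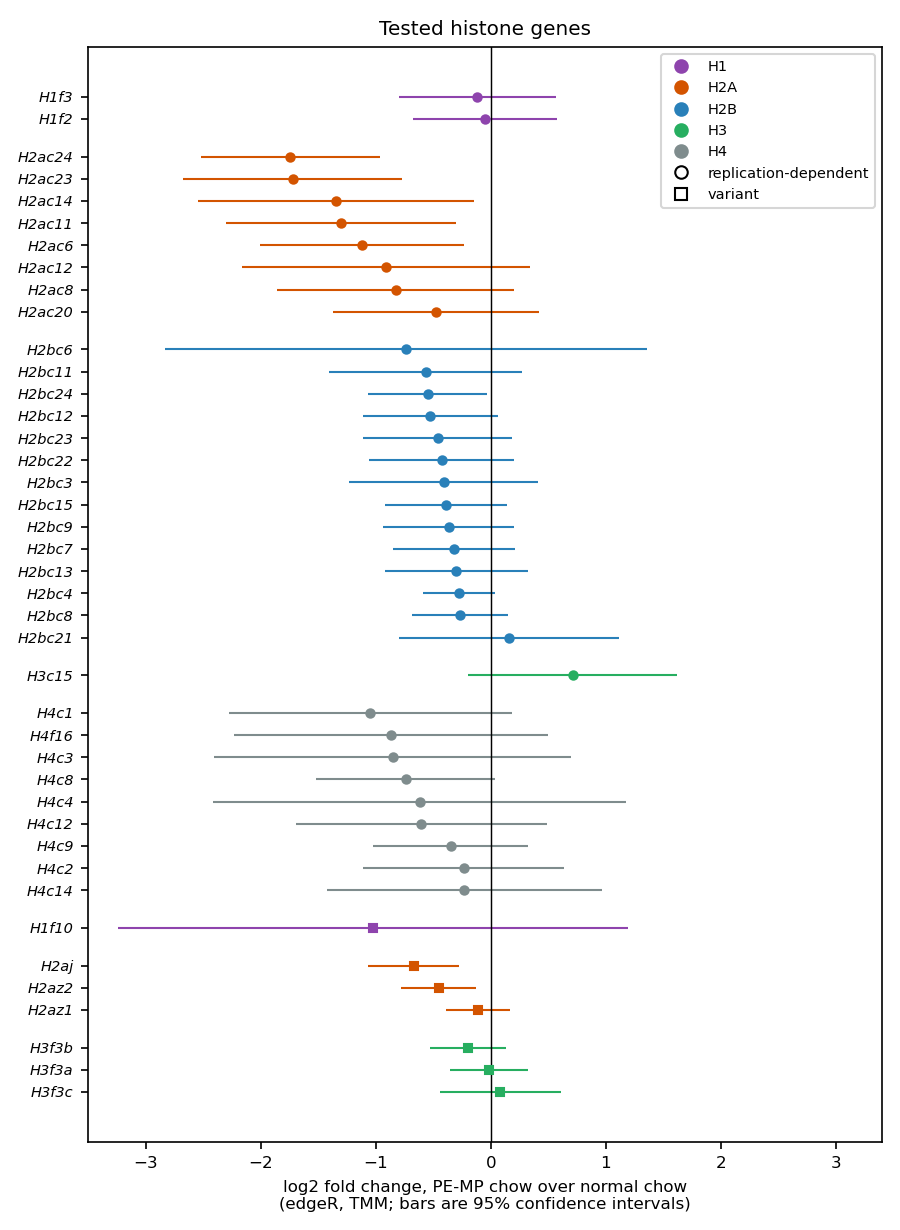
Log2 fold change of PE-MP over normal chow (TMM scaling) with its 95% confidence interval for the 34 tested replication-dependent genes (circles) and 7 tested variants (squares), coloured by family. All 8 H2A and all 9 H4 replication-dependent genes lie left of 0, H3c15 lies right of it, and 28 of the 34 replication-dependent intervals hold 0.

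The canonical H2A genes lay lowest under PE-MP relative to normal chow. All 8 tested had negative values, from -1.74 to -0.48 on the log2 scale around a median of -1.21, and 6 of the 8 were lower without overlap, against 11.8% of all genes. Of the 8, H2ac11, H2ac12, H2ac14 and H2ac23 reached the filter's cutoff of 0.122 CPM in all 3 normal chow libraries and in fewer PE-MP libraries, H2ac14 in 0, so that the filter itself favoured low PE-MP values there. The 4 others had a median of -0.97, and without a filter 15 of the 15 genes with a count were negative with a median of -1.20. H2ac24 had 0.180, 0.146 and 0.158 CPM in PE-MP livers, against 0.500, 0.632 and 0.494 CPM in normal chow livers. The highest PE-MP library was well below the lowest normal chow library, and the log2 fold change was -1.74 ± 0.33 (SE, n = 3 per chow; edgeR adjusted p = 0.124). Behind these levels stood 17, 12 and 17 counts in PE-MP libraries, against 35, 38 and 50 counts in normal chow libraries.

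H2ac23 had 0.169, 0.134 and 0.102 CPM in PE-MP livers, against 0.400, 0.566 and 0.375 CPM in normal chow livers. The chows did not overlap, and the log2 fold change was -1.72 ± 0.40 (SE; edgeR adjusted p = 0.139). For H2ac11 the levels were 0.0952, 0.122 and 0.0930 CPM in PE-MP livers, against 0.271, 0.233 and 0.257 CPM in normal chow livers. They too were apart, by -1.30 ± 0.42 on the log2 scale (SE; edgeR adjusted p = 0.198). H2ac6 averaged 0.178 ± 0.0326 CPM in PE-MP livers and 0.390 ± 0.0778 CPM in normal chow livers, and H2ac14 averaged 0.0601 ± 0.00392 CPM in PE-MP livers and 0.153 ± 0.0168 CPM in normal chow livers (SD, n = 3 each), again without overlap (edgeR adjusted p = 0.206 and 0.239). The other 3 tested H2A genes, H2ac8, H2ac12 and H2ac20, had log2 fold changes of -0.83, -0.91 and -0.48, and only H2ac8 of them was without overlap. DESeq2, run as an alternative, called H2ac24 and H2ac23 lower (DESeq2 adjusted p = 0.00906 and 0.0342), where it called 2.55% of all genes lower and 2.62% higher.

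**Figure D3:**
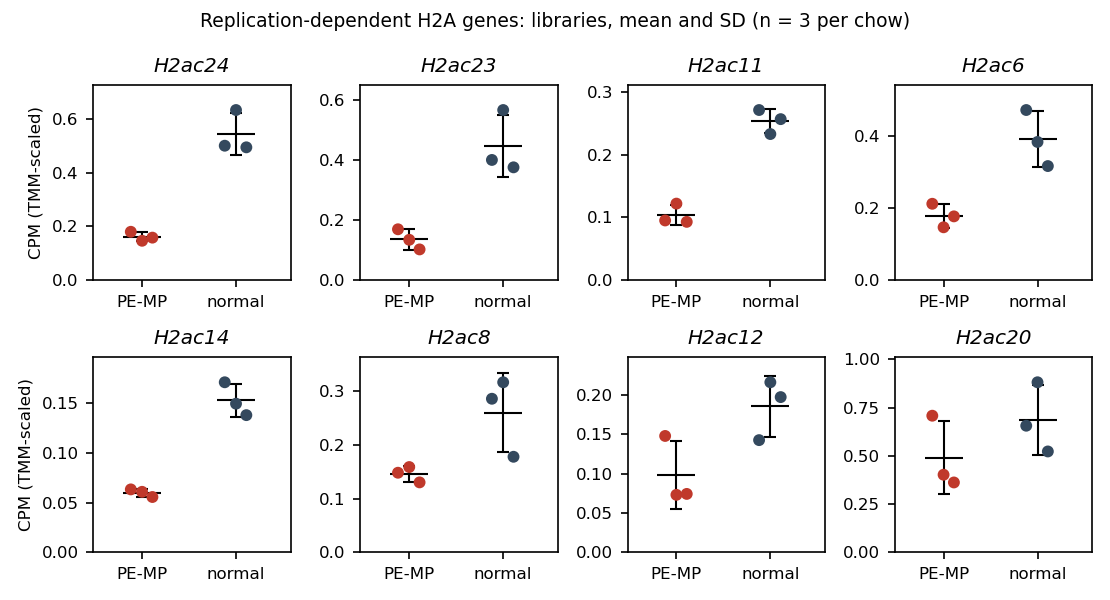
TMM-scaled CPM of the 8 tested replication-dependent H2A genes in each PE-MP (red, left) and normal chow (blue, right) library, with the mean and SD of 3 libraries. PE-MP libraries lie below normal chow libraries without overlap in H2ac24, H2ac23, H2ac11, H2ac6, H2ac14 and H2ac8, and overlap with them in H2ac12 and H2ac20.

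Summed over all 17 genes, replication-dependent H2A held 201, 131 and 151 counts in PE-MP libraries, against 248, 246 and 334 counts in normal chow libraries. On the TMM scale this was 2.13, 1.6 and 1.4 CPM in PE-MP livers, against 3.54, 4.09 and 3.3 CPM in normal chow livers. On the scale of total counts the sums were 2.28, 1.74 and 1.64 CPM in PE-MP livers, against 3.27, 3.6 and 2.97 CPM in normal chow livers, and the chows did not overlap on either scale. The log2 ratio of the means was -1.09 with TMM and -0.80 with total counts. An exact permutation test of 3 against 3 libraries cannot go below 0.1, so no such test was used.

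Within-library ratios need no scaling between libraries. H2A counts were 0.466, 0.423 and 0.476 times the H4 counts in PE-MP libraries, against 0.612, 0.658 and 0.721 times in normal chow libraries. Set against H2B counts without the 3 highest genes, H2A stood at 0.154, 0.138 and 0.149 in PE-MP libraries, against 0.239, 0.282 and 0.182 in normal chow libraries. Both ratios were lower in each PE-MP library than in any normal chow library. Such ratios show unequal change and do not say which family moved.

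Several measured facts bear on these low counts. The coding sequences of H2ac11, H2ac23 and H2ac24 consist entirely of 50-base windows that also occur in transcripts of another gene. Of 16 H2A genes with a coding sequence, 15 shared over 50% of such windows, as did 14 of 15 H2B and 10 of 13 H4 genes. How reads were split among copies is therefore uncertain. All 17 replication-dependent H2A genes overlap an annotated antisense gene in GENCODE M21, over 28.8% of exon bases in H2ac23 and 28.6% in H2ac24. The libraries kept strand, but whether counting used it is not stated in the labels. Reads of a gene and its antisense partner therefore cannot be told apart here within the overlapped part. Normal chow library 2 held the highest H2ac24 and H2ac23 levels and also 3.23 CPM of the division marker Mki67, against 0.528 and 0.573 CPM in the other 2 normal chow libraries. Without it the H2A median was -1.24 over 11 tested genes and H2ac24 stood at -1.62 (edgeR adjusted p = 0.0523).

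H4 is the partner of H3 in the nucleosome core. Its genes were negative in 9 of 9 tested, their median was -0.62, and 3 of 9 were lower without overlap, against 11.8% of all genes. With total counts 7 of 9 were negative. H4c12 reached the filter's cutoff in 3 normal chow libraries and 1 PE-MP library, and H4c1 and H4f16 in 2 and 1. The filter favoured low PE-MP values there, and high ones for H4c14, which reached it in 2 and 3. H4c1 and H4c12 were among the genes without overlap. The 6 genes at the cutoff in all 3 PE-MP libraries had a median of -0.49. Without a filter 12 of 13 H4 genes were negative, with a median of -0.59. H4c9, the highest, had 1.17, 1.24 and 1.22 CPM in PE-MP livers, against 2, 1.03 and 1.6 CPM in normal chow livers. The chows overlapped and the log2 fold change was -0.35 ± 0.28 (SE; edgeR adjusted p = 0.546). Summed H4 reached 4.56, 3.78 and 2.95 CPM in PE-MP livers, against 5.78, 6.22 and 4.57 CPM in normal chow livers. PE-MP library 1 lay only just below normal chow library 3 there, and on the scale of total counts they overlapped.

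H2B genes were negative in 13 of 14 tested, with a median of -0.40, and 6 of 14 were lower without overlap, against 11.8% of all genes. With total counts 10 of 14 were negative. H2bc4, the most abundant replication-dependent gene, had 87.7, 73.1 and 80.2 CPM in PE-MP livers, against 88.2, 93.6 and 110 CPM in normal chow livers. PE-MP library 1 lay only just below normal chow library 1, and the log2 fold change was -0.28 ± 0.13 (SE; edgeR adjusted p = 0.325). H2bc24 had 1.26, 1.06 and 1.08 CPM in PE-MP livers, against 1.47, 1.6 and 1.9 CPM in normal chow livers, which is -0.55 ± 0.22 on the log2 scale (SE; edgeR adjusted p = 0.258). H2bc8 had 12.4, 9.26 and 9.75 CPM in PE-MP livers, against 10.8, 12.8 and 14.3 CPM in normal chow livers, which overlapped (-0.27 ± 0.18, SE; edgeR adjusted p = 0.456). H2bc9 and H2bc7 had log2 fold changes of -0.37 and -0.32.

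H2bc6 rested on 1 library. It had 3.01, 3.09 and 0.195 CPM in PE-MP livers, against 3.48, 2.88 and 4.09 CPM in normal chow livers. PE-MP library 3 held 21 counts, where the others held 173 to 414. The log2 fold change was -0.73 ± 0.86 (SE) with it and -0.20 without it. H2bc21, a gene with a poly(A) signal and no stem-loop match, had 1.20, 0.720 and 0.809 CPM in PE-MP livers, against 1.27, 0.582 and 0.592 CPM in normal chow livers, and its log2 fold change of 0.16 turned negative when PE-MP library 1, normal chow library 2 or normal chow library 3 was left out.

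Replication-dependent H1 spread widely. H1f2 had 91.3, 74.5 and 45.4 CPM in PE-MP livers, against 85.8, 69.9 and 63.6 CPM in normal chow livers. PE-MP library 1 was the highest of the 6 and PE-MP library 3 the lowest, and the log2 fold change was -0.05 with a 95% confidence interval from -0.68 to 0.57 (edgeR adjusted p = 0.931). It was 0.17 without PE-MP library 3. H1f3, the other tested gene, had a log2 fold change of -0.12.

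Of 12 replication-dependent H3 genes, only H3c15 had counts enough to test. It had 0.772, 0.500 and 0.437 CPM in PE-MP livers, against 0.400, 0.416 and 0.237 CPM in normal chow livers. The chows did not overlap, the PE-MP libraries being higher, and the log2 fold change was 0.71 ± 0.38 (SE; edgeR adjusted p = 0.374). Every 50-base window of its coding sequence occurs in another gene's transcripts, and H3c14, of the same family, was at 0 counts in all libraries. H3c13 held 0, 11 and 6 counts in PE-MP libraries and 0 counts in each normal chow library, where a count of 0 allows 0.0267 to 0.0439 CPM of total counts per library. Such limits cover counting error only.

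**Figure D4:**
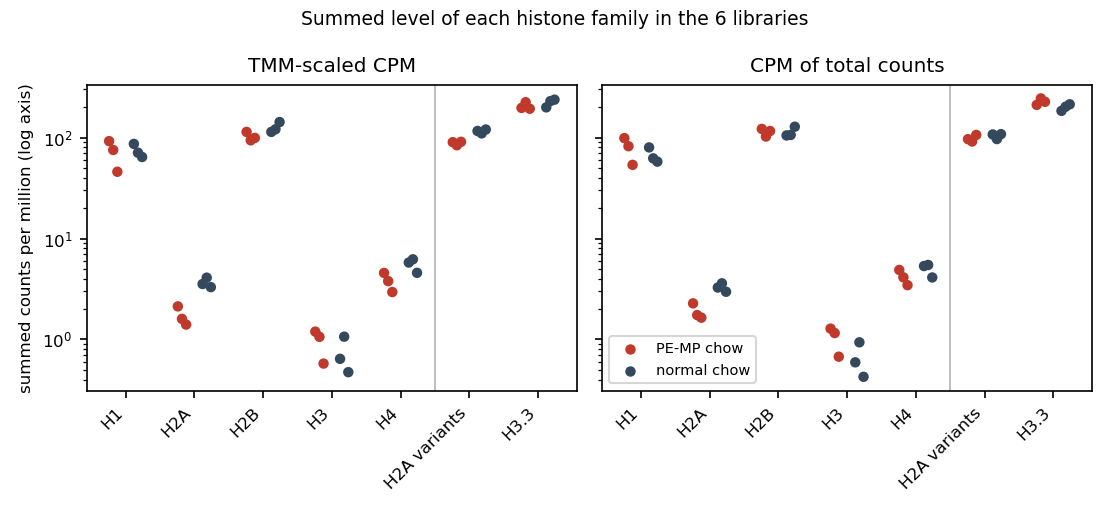
Summed CPM of each replication-dependent family and of the H2A and H3.3 variants in the PE-MP (red) and normal chow (blue) libraries, on a log axis, with TMM scaling (left) and total counts (right). Replication-dependent H2A lies lower in all 3 PE-MP libraries on both scales, with log2 ratios of -1.09 and -0.80. The H2A variants and H4 do so with TMM only, while H1 and H3.3 overlap.

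Taken as sums, replication-dependent histones as a whole reached 214, 176 and 150 CPM in PE-MP livers, against 210, 203 and 215 CPM in normal chow livers. The sum overlapped between chows and was set by the 3 highest genes. Its log2 ratio was -0.22 with TMM and 0.08 with total counts. Without those 3 genes the sum was 22.6, 18.9 and 14.9 CPM in PE-MP livers, against 25.6, 26.9 and 27.1 CPM in normal chow livers, with log2 ratios of -0.50 and -0.20 on the 2 scales. Replication-dependent counts were 0.745, 0.570 and 0.528 times the variant counts in PE-MP libraries, against 0.666, 0.597 and 0.601 times in normal chow libraries, a ratio that overlapped between chows.

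The variants made up a larger share of the counts. With TMM they summed to 287, 308 and 284 CPM in PE-MP livers, against 316, 340 and 358 CPM in normal chow livers. These sums did not overlap (log2 ratio -0.21), but overlapped with total counts (0.10). The H2A variants summed to 90.1, 84.0 and 90.8 CPM in PE-MP livers, against 116, 110 and 120 CPM in normal chow livers. They too were apart with TMM (-0.39) and overlapped with total counts (-0.09), while H3.3 overlapped on both scales. Of 7 variants tested, 0 were called, and the median was -0.20 on the log2 scale. At an unadjusted p under 0.05, 2 were lower (8.82% of all genes), and 3 were lower without overlap (11.8% of all genes). H2aj codes for H2A.J, a variant known to accumulate in senescent human fibroblasts. It had 31.5, 26.5 and 26.3 CPM in PE-MP livers, against 50.3, 35.7 and 48.1 CPM in normal chow livers. The chows were apart, with a log2 fold change of -0.67 and a 95% confidence interval from -1.06 to -0.28 (edgeR adjusted p = 0.146). Without normal chow library 2 the value was -0.81 (edgeR adjusted p = 0.0352), in a fit that called 3.27% of all genes lower and 2.38% higher. With total counts it was -0.37.

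H2az2 codes for one of the H2A.Z proteins, which mark promoters. Its levels were 18.1, 19.2 and 23.3 CPM in PE-MP livers, against 27, 26.9 and 29.3 CPM in normal chow livers. These did not overlap, and the log2 fold change was -0.46 ± 0.14 (SE; edgeR adjusted p = 0.184). H2az1, coding for the other H2A.Z protein, had 40.5, 38.2 and 41.2 CPM in PE-MP livers, against 39.1, 47.5 and 42.9 CPM in normal chow livers, which overlapped (-0.11 ± 0.12, SE; edgeR adjusted p = 0.648). On the scale of total counts the H2az1 value turned to 0.20.

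Both H3.3 genes, whose identical protein replaces H3 in active chromatin, overlapped between chows. H3f3b had 109, 128 and 96.5 CPM in PE-MP livers, against 121, 124 and 137 CPM in normal chow livers, which came to -0.20 ± 0.14 on the log2 scale (SE; edgeR adjusted p = 0.476). H3f3a had 86.6, 94.4 and 94.2 CPM in PE-MP livers, against 76.5, 104 and 98.1 CPM in normal chow livers, with a log2 fold change of -0.02 and a 95% confidence interval from -0.35 to 0.32. H3f3c averaged 2.12 ± 0.39 CPM in PE-MP livers and 2 ± 0.2 CPM in normal chow livers (SD, n = 3 each; log2 fold change 0.08 ± 0.22, SE). With total counts the H3f3b and H3f3a values turned to 0.10 and 0.29, below the shift of 0.32 that this scale gave all genes.

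The linker variants were scarce. H1f10 held 11, 0 and 12 counts in PE-MP libraries, against 12, 8 and 17 counts in normal chow libraries, and its log2 fold change of -1.02 ± 0.93 (SE) rests on these few counts. H1f0 codes for H1.0, the linker histone known to accumulate in resting and differentiated cells, and its row was at 0 counts in all 6 libraries. In GENCODE M21, an annotated gene named Gm49544 overlaps 7.93% of the H1f0 exons on the other strand. The Gm49544 row held 11579, 9327 and 10803 counts in PE-MP libraries, against 6594, 5539 and 9738 counts in normal chow libraries. In CPM these were 122, 114 and 100 in PE-MP livers, against 94.1, 92.2 and 96.1 in normal chow livers, or 0.25 ± 0.11 on the log2 scale (SE; edgeR adjusted p = 0.306).

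A zero next to a counted antisense neighbour was also present for canonical H2A. H2ac18 and H2ac19, whose coding windows all occur in other genes too and which carry the commonest stem-loop form, were at 0 in all libraries. Gm20633, antisense to H2ac18, held 1572, 1124 and 1323 counts in PE-MP libraries, against 1602, 1259 and 2454 counts in normal chow libraries. Scaled by TMM, Gm20633 stood at 16.6, 13.7 and 12.3 CPM in PE-MP livers, against 22.9, 20.9 and 24.2 CPM in normal chow livers. On that scale the PE-MP libraries were the lower ones without overlap. The edgeR estimate for Gm20633 was -0.67 in log2 units, its SE was 0.15 and its adjusted p was 0.135. Gm20632, antisense to H2ac19, held 1179, 566 and 972 counts in PE-MP libraries, against 781, 500 and 1193 counts in normal chow libraries. In CPM the chows overlapped for Gm20632, and edgeR put its change at -0.14 in log2 units, with an SE of 0.25. These 3 antisense neighbours were named after their values were seen. Whether reads of the histone genes were counted in their rows, or left out as ambiguous, was not tested, and the GRCm39 annotation behind the counts was not used here. On the same strand, the annotated gene Gm20634 overlaps 90.3% of the H2ac18 exon bases and 100% of those of H3c14. The Gm20634 row was itself at 0 counts in all libraries. Levels of H1f0, H2ac18, H2ac19 and H3c14 in these livers therefore cannot be read from their rows. The H2A sum holds no count of H2ac18 or H2ac19.

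**Figure D5:**
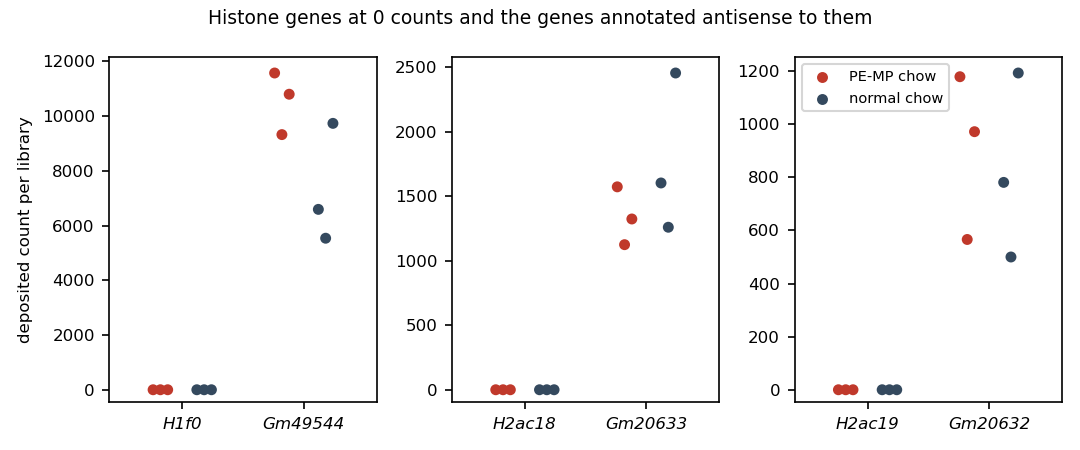
Deposited counts per library of 3 histone genes at 0 (H1f0, H2ac18 and H2ac19) and of the gene annotated antisense to each, in PE-MP (red) and normal chow (blue) libraries. The histone rows are at 0 in all 6 libraries, while the Gm49544 row holds 5539 to 11579 counts.

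Altogether 8 of the 79 genes were at 0 in every library: H1f0, H2ac18, H2ac19, H3c14 and the germ-line genes H1f7, H1f8, H1f9 and H2ac1. H2bc1, a testis histone, was the only germ-line gene tested, at 0.129 ± 0.0416 CPM in PE-MP livers and 0.166 ± 0.0861 CPM in normal chow livers (SD, n = 3 each). H3f3aos averaged 0.383 ± 0.152 CPM in PE-MP livers and 0.238 ± 0.183 CPM in normal chow livers (SD, n = 3 each), which overlapped.

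Other histone variants whose symbols fall outside the name rule were set beside these. H2ax, coding for the DNA-damage variant H2A.X, whose gene is known to give both stem-loop and polyadenylated transcripts, averaged 8.12 ± 2.01 CPM in PE-MP livers and 11.7 ± 2.89 CPM in normal chow livers (SD, n = 3 each). The chows overlapped, with a log2 fold change of -0.53 (edgeR adjusted p = 0.316). Macroh2a1, Macroh2a2 and the centromeric Cenpa had log2 fold changes of -0.28, 0.26 and -0.07, and overlapped between chows. H2aw, a further H2A gene outside the rule, had 2.51, 2.68 and 2.5 CPM in PE-MP livers, against 1.86, 2 and 2.37 CPM in normal chow livers. Its PE-MP libraries were the higher ones without overlap, and the log2 value was 0.30 ± 0.19 (SE; edgeR adjusted p = 0.438).

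A list of genes that process or degrade replication-dependent histone transcripts, which also held the transcription factor Mybl2, showed no common direction. Of 19 tested, 0 were called, 10 were negative and the median was -0.03, beside 0.02 over all genes. With total counts 2 of 19 were negative and the median was 0.27, against the shift of 0.32. Slbp itself had 6.5, 7.15 and 7.38 CPM in PE-MP livers, against 7.31, 8.10 and 7.53 CPM in normal chow livers, which overlapped (-0.13 ± 0.14, SE; edgeR adjusted p = 0.665). Lsm10, a subunit of the U7 particle that cuts these transcripts, averaged 11.9 ± 1.29 CPM in PE-MP livers and 16.1 ± 0.914 CPM in normal chow livers without overlap (SD, n = 3 each; log2 fold change -0.44, edgeR adjusted p = 0.191). Lsm1, of the decay ring, had a log2 fold change of -0.34 with overlap. Mybl2, a cell-cycle transcription factor on this list, had 0.698, 0.805 and 0.669 CPM in PE-MP livers, against 0.228, 0.250 and 0.188 CPM in normal chow livers, which is 1.71 ± 0.29 on the log2 scale (SE; edgeR adjusted p = 0.124).

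Histone chaperones and assembly factors had a median of 0.02 over 30 tested, with 13 negative and 0 called. With total counts 5 were negative, around a median of 0.32. Asf1b, the H3-H4 chaperone of dividing cells, averaged 0.328 ± 0.0315 CPM in PE-MP livers and 0.751 ± 0.343 CPM in normal chow livers (SD, n = 3 each; log2 fold change -1.19, edgeR adjusted p = 0.199). Mcm2, which belongs to the replicative helicase and holds histones, had a log2 fold change of -0.62 (edgeR adjusted p = 0.185). Tonsl, which binds new H4 behind the fork, had one of 0.81 (edgeR adjusted p = 0.198). None of the 3 overlapped between chows.

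Genes of S phase and division were mostly negative too. Of 38 tested, 30 lay below 0 (48.3% of all genes), and 14 were lower and 0 higher at an unadjusted p under 0.05 (8.82% and 9.1% of all genes). The median was -0.36 and 0 were called. With total counts 21 of 38 were negative and the median was -0.06, against the shift of 0.32 for all genes. Cdc20, an activator of mitotic exit, had 0.159, 0.146 and 0.232 CPM in PE-MP livers, against 0.885, 0.815 and 1.07 CPM in normal chow livers (log2 fold change -2.36 ± 0.32, SE; edgeR adjusted p = 0.0753). E2f1, a transcription factor of S-phase entry, had a log2 fold change of -0.75, and Ccnb1, the mitotic cyclin B1, one of -2.25. The 8 positive genes reached 0.79 for Ccne2, with Birc5 and E2f8 at 0.58 and Tk1 at 0.54. Mybl2, on the processing list above, stood at 1.71. Top2a and Mki67 had log2 fold changes of -1.79 and -1.29, with the highest value of each in normal chow library 2. Without that library 29 of 38 were negative and the median was -0.34. Whether these genes and the histones change for 1 reason was not tested, and in bulk liver fewer dividing cells and less RNA per cell cannot be told apart.

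Markers of immune cells and carry-over of RNA without a poly(A) tail also varied. T and NK cell markers summed to 3.42 to 5.98 CPM in PE-MP livers and to 6.19 to 8.39 CPM in normal chow livers, with 8 of 9 tested negative. B and plasma cell markers summed to 18.0 to 61.7 CPM in PE-MP livers and to 20.4 to 185 CPM in normal chow livers, with 7 of 8 negative and a median of -1.14. Without normal chow library 2 only 4 of 8 were negative and the median was -0.29. Kupffer cell markers summed to 179 to 299 CPM in PE-MP livers and to 132 to 180 CPM in normal chow livers, with 10 of 10 positive. Erythroid markers, 5 of 6 tested, had a median of 0.26, which was -0.05 without normal chow library 2. Adipocyte markers, 3 of 6 tested, had a median of -2.99, which was -0.18 over 5 genes without a filter, and Lep was at 0. No gene of the other marker lists was at 0 in all libraries.

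RNAs that normally lack a poly(A) tail summed to 3257 to 57581 CPM in PE-MP livers and to 13177 to 130358 CPM in normal chow livers. Most of it was Rn18s-rs5, a ribosomal RNA row, and 32 of 41 tested were negative with a median of -0.80. Without normal chow library 2 the direction turned, with 15 of 48 negative and a median of 0.59. Snord3b1 and Snord3b2, rows of the U3 small nucleolar RNA, had log2 fold changes of -1.92 and -1.77, and Snord37 one of 2.90. Nuclear RNAs such as Tug1 were positive in 9 of 10, with a median of 0.91. The part of these differences in the H2A values was not tested.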

How the data were processed

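The authors deposited gene counts, whole numbers without normalisation, from poly(A)-selected, strand-keeping libraries, per the labels' protocols and the file headers. bcl2fastq was used and the build was GRCm39, per the submitters' processing notes. Neither aligner, counting program nor annotation is stated there. The 6 per-library files matched the series table.

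Members, classes, the 11 gene lists and the rule for named genes (tested variants, the 8 highest replication-dependent genes, the 6 smallest p per direction) were chosen with earlier results of these data known. Differences were tested over all genes passing edgeR's default filter with edgeR 4.0.16 (R 4.3.3), by its quasi-likelihood F test with TMM. P-values were 2-sided with Benjamini-Hochberg adjustment and a threshold of 0.05. The step was checked on simulated counts, with 200 changed genes drawn at random from all levels in each of 5 simulations. It called 0% of 1.5-fold, 2.88% of 2-fold and 48.3% of 4-fold changes, and 0.0219% of unchanged genes. Of the 79 genes, 77 were matched to GENCODE M21 through Entrez identifiers, for exon length, UTR sequence and overlaps; H1f9 and H2bc24 were not. No coordinates are given because the builds differ. A fold change between chows comes from 68357478 to 112566641 counts per library.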

Additional observations from a re-analysis of the deposited data

How the results depend on the processing

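Alternatives were RLE, upper-quartile and total-count scaling, leaving out mitochondrial and Rn18s-rs5 rows, DESeq2 1.42.0, limma-voom (limma 3.58.1), 2 other filters, an adjusted p of 0.1, the replicate number as a block and each library left out. The count of replication-dependent genes called was 0 in all of these but DESeq2, with 2 (H2ac23 and H2ac24, lower). For variants it was 0 but for H2aj, lower with DESeq2 (1 gene) and, over the libraries left out, in 0 to 1 genes. Over all genes the count of 1 became 3 with RLE, 10 with total counts, 1095 with DESeq2, 15 with limma-voom, 23 without a filter, 22 with at least 1 CPM, 53 at an adjusted p of 0.1, and 1 to 1075 with a library left out, the most without normal chow library 2.

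Same-numbered libraries correlated at 0.00272, 0.0405 and 0.136 in their deviations from the chow means, so the numbers were not taken to pair them. With the replicate block, 0 genes were called over all genes, the H2A median stayed at -1.21 and the smallest adjusted p of an H2A gene was 0.247.

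The median log2 fold change of replication-dependent genes was -0.21 with total counts and -0.33 with at least 1 CPM, a filter that left 9 of them, and ran from -0.64 to -0.39 with a library left out. That of variants was 0.10 with total counts and ran from -0.32 to -0.13. The summed level changed to 0.075 for replication-dependent genes and to 0.10 for variants with total counts, and to -0.043 for variants without mitochondrial and Rn18s-rs5 counts. Directions turned with total counts for H1f2 (0.23), H2az1 (0.20), H2bc4 (0.025), H2bc8 (0.030), H3f3a (0.29) and H3f3b (0.10), the scale on which the median of all genes was 0.32. With a library left out, values crossed 0 for H1f2 (-0.28 to 0.17), H2bc21 (-0.079 to 0.62), H3f3a (-0.14 to 0.067) and H3f3c (-0.058 to 0.22). H3f3a also turned with upper-quartile factors (0.011) and at least 1 CPM (0.0035). Other causes were not tested. H2A genes rest on 11 to 50 counts per library for H2ac23 and H2ac24, which limits their precision.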
